A study of Homo sapiens with 3 samples.

Results

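Expression of NCI-N87 cells given a FOXP4 siRNA, called siRNA1, was set against that of cells given a scrambled siRNA, with 1 library a side. A row of the deposited expression table entered where its mean over these libraries reached 5 TPM, which left 10851 of 31907 rows. TPM is a share of the reads corrected for transcript length. The difference is given as log2 of (TPM + 1) with siRNA1 over (TPM + 1) with the scrambled siRNA and is called the log2 fold. It understates the change of low genes. Where a gene has a pair of TPM values, the scrambled library comes first and siRNA1 second.

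NCI-N87 is an established human gastric cancer cell line, and both cultures were transfected with Lipofectamine 2000. The labels give the scrambled library the genotype WT and the siRNA1 library the genotype Knockdown. They state neither the time after transfection, nor the siRNA dose, nor whether separate cultures were sampled. A library of cells given another FOXP4 siRNA, siRNA2, takes no part in the contrast, and its TPM is given as that library's own value. The exception is a correlation with GC content, which uses its folds over the same control. With 1 library a side no difference has a replicate check, and no test was made.

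FOXP4 encodes a forkhead transcription factor, one of a family of DNA-binding proteins that act in the development of gut and lung epithelium. YAP1, the other gene in the title of the series, encodes the transcriptional coactivator held back by the kinases of the Hippo pathway. EGR1 is an immediate early gene, switched on within minutes of growth factor or stress signals through the ERK cascade and serum response factor, without new protein synthesis. The mitochondrial genome encodes subunits of the respiratory chain, and its transcripts are made and processed apart from nuclear ones.

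The 3 libraries were of like depth, at about 18000000 to 18700000 reads by an estimate from the steps of the TPM values. A single read on 2000 bases of exon was worth 0.107 TPM in the scrambled library and 0.111 TPM in the siRNA1 library. Of the 15 markers set for NCI-N87 epithelium, 1 stood under 1 TPM: KRT7. EPCAM, which encodes an epithelial adhesion molecule, measured 1136 and 1150.2 TPM with the scrambled siRNA and siRNA1, and the simple keratin KRT8 1733 and 1025 TPM. CDH1, which encodes E-cadherin, was low at 4.16 and 5.86 TPM. ERBB2, the receptor gene for whose amplification the line is known, measured 89.8 and 58.9 TPM. GRB7, another marker of the set, measured 60.4 and 80.5 TPM. The top quartile of genes entered began at a mean of 73.2 TPM, so neither gene stood far above that level. Whether ERBB2 is amplified in these cells was not tested. Of 17 immune markers 12 were in the table, 6 of them at 0 in both libraries, and LYZ alone entered, a gene that gastric gland cells also express. Of 12 fibroblast and endothelial markers 11 were in the table, 7 of them at 0 in both, with COL1A1 alone entering at 13.1 and 6.42 TPM.

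In the control library FOXP4 (GRCh38, ENSG00000137166.14, chromosome 6, 41546426 to 41602384, plus strand) stood at 93.9 TPM. Its level was 51.6 TPM with siRNA1, and 36.7 TPM in the siRNA2 library. The siRNA1 value was 0.55 times the control, with a counting interval of 0.515 to 0.586. Such intervals are exact 95% intervals on estimated reads and cover counting error only. The log2 fold of FOXP4 was -0.85, which ranked 830 from the bottom. FOXP4 transcripts are rich in G and C, at 62.9% of bases, and a trend of folds along GC content ran through the whole contrast, as described further on. With that trend removed the log2 fold of FOXP4 was -0.20. Among the 794 genes within 2 points of its GC content, the FOXP4 fold lay at percentile 26.4. The antisense gene FOXP4-AS1 overlaps FOXP4, and the kit's strand setting is not given in the sources used here.

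YAP1 (ENSG00000137693.13, chromosome 11, 102110461 to 102233423, plus strand) stood at 152 TPM in the control, at 45.4 TPM with siRNA1 and at 176 TPM in the siRNA2 library. The siRNA1 value was thus 0.299 times the control (0.281 to 0.318 by counting), a log2 fold of -1.72. YAP1 is poorer in GC, at 43.5%, and its fold was -1.98 with the trend removed. It ranked 43 from the bottom of all genes entered, and 16 with the trend removed. Among the 1738 genes within 2 points of its GC content, it lay at percentile 0.115. The gene named in the labels as the target of siRNA1 therefore stood nearer the middle of genes of its own composition than YAP1 did. The siRNA sequences are not in the sources used here, and whether siRNA1 acts on YAP1 transcripts was not tested.

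Most genes lay close to the control, and a few stood far above it. Of the 10851 genes, 7434 (68.5%) were within 1.5-fold, and the log2 folds had a median of 0.03, a standard deviation of 0.64 across genes, and 10th and 90th percentiles of -0.75 and 0.73. At least 2-fold higher were 436 genes (4.02%) and at least 2-fold lower 514 genes (4.74%). At least 4-fold higher were 66 genes (0.608%) and at least 4-fold lower 26 genes (0.24%). Of these, 37 and 12 were protein-coding. With the GC trend removed, over 10029 genes with a known GC content, 254 were at least 2-fold higher (2.53%) and 151 lower (1.51%), so the larger share changed from the lower to the higher side. Without removal, 5635 of the 10851 genes had a log2 fold above 0 and 5216 below 0. These shares and counts are the background for every count of list members below. The median of 22 of 59 lists changed sign under at least 1 of the settings tried, among them the lists of CDK inhibitors and cyclins, G2/M, forkhead, lineage factor, Notch, Wnt, sterol synthesis, RNA interference, integrin and epithelial junction genes, so no direction is read from those medians.

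**Figure D1:**
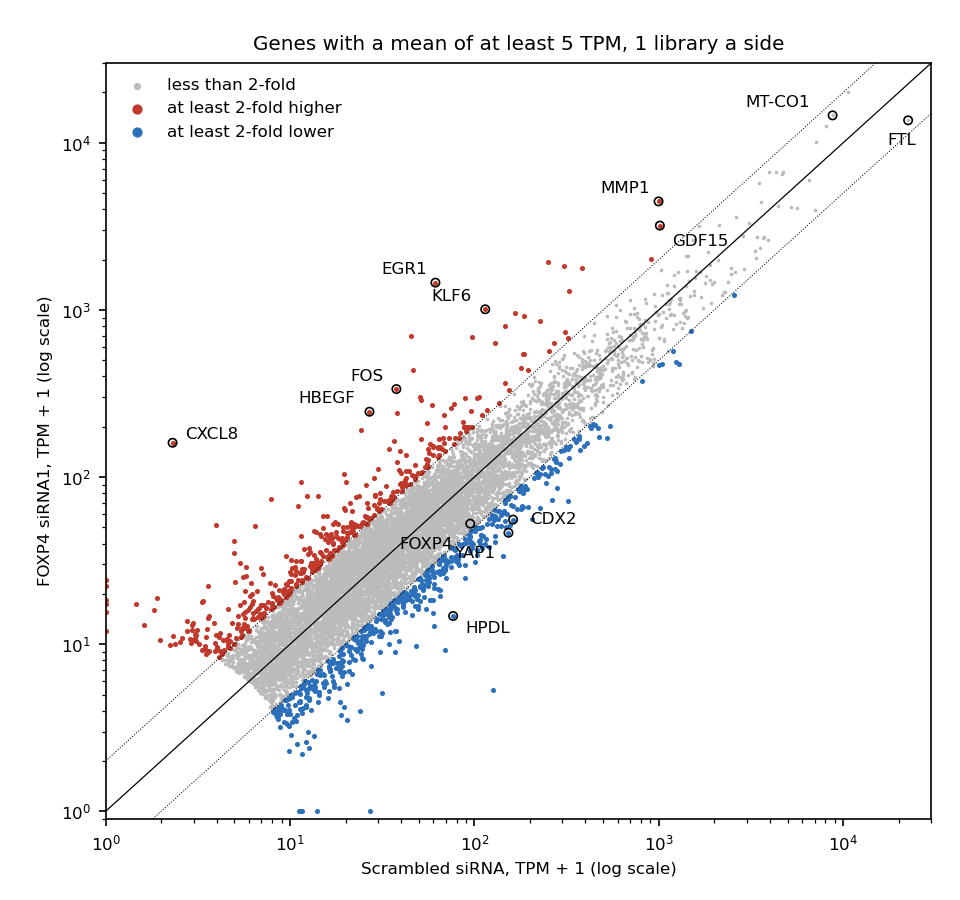
Scatter of TPM + 1 in the scrambled library (x axis, log scale) against TPM + 1 in the siRNA1 library (y axis, log scale) for the 10851 genes entered, with 1 point a gene. The solid line marks equal values and the dotted lines 2-fold differences. EGR1 and CXCL8 lie far above the lines and FOXP4 inside the lower dotted line.

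The genes highest over the control included many immediate early genes. CXCL8 (ENSG00000169429.10, chromosome 4, 73740506 to 73743716, plus strand), which encodes the neutrophil chemokine interleukin-8, had the largest log2 fold, 6.12, from 1.31 to 159 TPM. It stood at 334 TPM in the siRNA2 library. Its control value rested on about 13.9 reads, which put the ratio between 71.8 and 222 by counting. EGR1 (ENSG00000120738.7, chromosome 5, 138465490 to 138469315, plus strand) measured 60.5 and 1455 TPM, a ratio of 24.1 (22.5 to 25.8) and a log2 fold of 4.57. In the siRNA2 library EGR1 stood at 2305 TPM. EGR2, its relative, measured 0.461 and 16.4 TPM, with 7.94 reads behind the control value.

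The AP-1 subunit genes FOSB and FOS measured 2.98 and 50.6 TPM and 36.7 and 335 TPM, log2 folds of 3.70 and 3.15. ATF3, a stress-induced partner of AP-1, measured 23.2 and 191 TPM. PHLDA1, a growth factor-induced regulator of receptor signalling and cell death, measured 45.2 and 438 TPM. KLF6, a zinc finger transcription factor, measured 113 and 1007 TPM, a ratio of 8.88 (8.56 to 9.21). FOSB overlaps ERCC1, so without strand their reads cannot be told apart.

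The same top ranks held secreted and surface signalling genes. HBEGF, which encodes a membrane-anchored ligand of the EGF receptor, measured 25.97 and 245 TPM, and 736 TPM in the siRNA2 library. ERRFI1, which encodes a feedback inhibitor of that receptor, measured 251 and 1938 TPM. The matrix metalloproteinase genes MMP10 and MMP3 measured 3.99 and 40.6 TPM and 3.94 and 34.1 TPM, and both lie in the MMP cluster of chromosome 11 with MMP1, the abundant interstitial collagenase, at 996 and 4458 TPM. MMP10, MMP3 and MMP1 each overlap WTAPP1, so their reads may hold some of its own. IL33, an alarmin cytokine, measured 10.5 and 92.7 TPM, and 31.6 TPM in the siRNA2 library. The small GTPase gene ARL14 measured 0.821 and 15.1 TPM, with 4.96 reads in the control.

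Other high genes were chosen for mention after their values were seen. TXNIP and ARRDC3, which encode alpha-arrestins, adaptors that help to take proteins off the cell surface, measured 307 and 1832 TPM and 5.47 and 49.8 TPM. MXD1, a repressor that competes with MYC for its partner, measured 11.3 and 76.05 TPM. ZFP36, which encodes a protein that speeds decay of cytokine mRNAs, measured 166 and 952 TPM. CD274, which encodes PD-L1, measured 1.76 and 11.1 TPM, and the hexokinase-like HKDC1 2.59 and 21.4 TPM. RGS16, which encodes an inhibitor of G protein signalling, measured 128 and 634 TPM. The non-coding LINC00659 measured 44.1 and 700.5 TPM, a ratio of 15.9 (13.1 to 19.5).

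**Figure D2:**
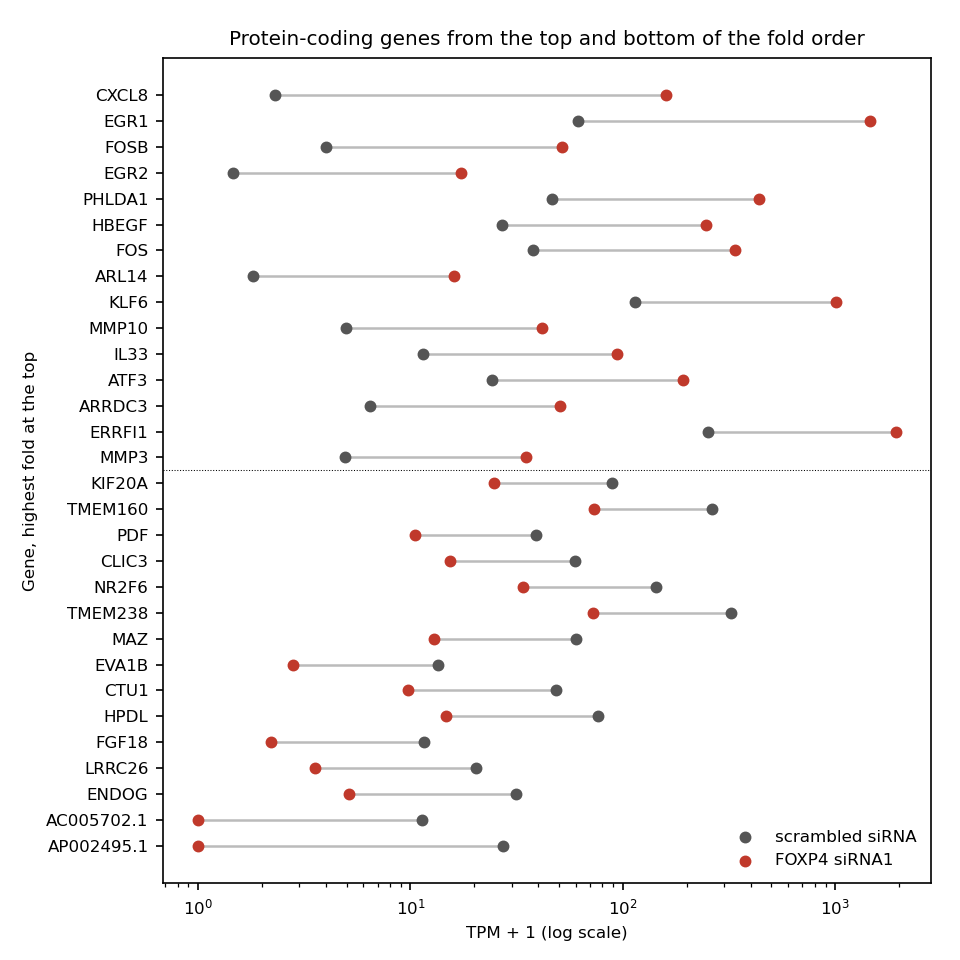
TPM + 1 (log scale) of 15 protein-coding genes from the top and 15 from the bottom of the order by log2 fold, 1 row a gene, with the scrambled library in grey and the siRNA1 library in red. Lines join both values of a gene, and AP002495.1 and AC005702.1 are listed at 0 with siRNA1. The lowest of the upper 15, MMP3, moved from 3.94 to 34.1 TPM.

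The upstream DNA of 3 of these genes is shown because it carries textbook sites for the factors that act on immediate early and inflammatory genes. Each line gives the 150 bases before the RefSeq start site on GRCh38.p14, 5′ to 3′ on the gene's strand. Capitals mark the CArG boxes bound by serum response factor in EGR1 and EGR2, and in CXCL8 an AP-1 site, an NF-kB site and a TATA box, in that order.
EGR1, chr5:138465329-138465478, plus strand: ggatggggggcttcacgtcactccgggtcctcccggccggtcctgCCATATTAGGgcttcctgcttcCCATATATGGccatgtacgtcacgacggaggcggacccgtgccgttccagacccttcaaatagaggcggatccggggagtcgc
EGR2, chr10:62816367-62816516, minus strand: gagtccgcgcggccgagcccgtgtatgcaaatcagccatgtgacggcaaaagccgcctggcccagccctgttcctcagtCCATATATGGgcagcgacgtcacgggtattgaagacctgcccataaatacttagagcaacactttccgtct
CXCL8, chr4:73740419-73740568, plus strand: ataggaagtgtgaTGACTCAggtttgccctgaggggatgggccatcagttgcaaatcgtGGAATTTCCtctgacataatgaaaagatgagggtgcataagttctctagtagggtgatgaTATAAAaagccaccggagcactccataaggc

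The same letters were counted on both strands of RefSeq promoter windows, from 250 bases before to 50 bases after the start, of which the genes entered had 11326, those at least 2-fold higher 396 and those at least 2-fold lower 429. An AP-1 site, TGACTCA or TGAGTCA, was in 3.47% of windows of genes entered, in 7.58% of those of higher genes and in 3.26% of those of lower genes. The NF-kB site GGAATTTCC was in 0.433%, 2.02% and 0.233%, the CArG box in 1.11%, 2.27% and 1.17%, and TATAAA in 5.61%, 11.9% and 3.26%. Some of these shares rest on few windows. The NF-kB site was in 8 windows of higher and 1 of lower genes, and the CArG box in 9 and 5. The cyclic AMP response element, CRE, was in 3.00% of windows of genes entered. Its share was 3.28% for higher genes, close to that of all genes entered, and 1.63% for lower genes. Over all 35116 windows of the table the shares were 4.95% for AP-1, 0.461% for the NF-kB site, 1.29% for the CArG box and 11.5% for TATAAA. The forkhead letters TGTTTAC were in 2.65% of windows of genes entered, 3.28% of those of higher genes and 2.80% of those of lower genes. A match is a description of letters, not a bound site. TATAAA and the CArG box can overlap. A gene can have several windows, such as EGR2 with 3, and windows of 1 gene can share bases. Most of these motifs are rich in A and T, higher genes were poorer in GC than lower ones, and the part of composition in these shares was not tested.

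The list of immediate early and ERK feedback genes had a median of 1.28 against 0.03 for all genes. Of its 41 genes 36 entered, 19 of them at least 2-fold higher and 1 lower. DUSP6, which encodes the phosphatase of ERK, measured 96.4 and 688 TPM, and SPRY4, a Sprouty inhibitor of receptor signalling, 50.6 and 289.8 TPM. JUN measured 146 and 797 TPM and the cyclooxygenase gene PTGS2 9.999 and 66.4 TPM. The exception past 2-fold was IER5, at 100.3 and 46.6 TPM, and MYC and BTG2 were also lower, at 254 and 156 TPM and 165 and 99.8 TPM. SRF, which encodes serum response factor itself, measured 64.2 and 56.2 TPM. The list is richer in GC than most genes, with a median of 52.6%, and its median fold was 1.77 with the GC trend removed. Over all settings its median fold ranged from 0.96 to 1.77. The filter on low values let in genes through the siRNA1 library alone, such as EGR2 and FOSB. The median can therefore lean to genes that could be high.

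Lists of neighbouring signalling roles had high medians too. Among chemokines and epithelial cytokines 8 of 24 entered, with a median of 1.30 and 5 at least 2-fold higher. The neutrophil chemokine genes CXCL1, CXCL2 and CXCL3, neighbours of CXCL8 on chromosome 4, measured 4.75 and 28.1 TPM, 3.68 and 10.4 TPM and 4.69 and 13.3 TPM. LIF, a cytokine of the interleukin-6 family, measured 31.95 and 87.1 TPM, and CXCL16 was lower at 220.0 and 149.5 TPM. The filter on low values kept chemokines that passed through the siRNA1 library alone, CXCL8, CXCL1, CXCL2 and CXCL3 among them. The median and the count of 5 are therefore those of genes that could be high. With no filter on low values the median was 0.42, and over all settings it ranged up to 1.46. NF-kB subunits and feedback genes had a median of 0.17 over 17 genes, with 1 at least 2-fold higher, the feedback inhibitor TNFAIP3 at 9.63 and 28.03 TPM, and 1 lower, the kinase scaffold IKBKG at 7.83 and 3.23 TPM. Removal of the GC trend gave this list a median of 0.37, with 2 genes at least 2-fold higher and 0 lower. The log2 fold of IKBKG was then -0.42 in place of -1.06.

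The 12 Kruppel-like factors entered had a median of 0.70, and 11 of them were above 0. KLF10, a gene induced by TGF-beta, measured 73.3 and 257 TPM, and KLF3 measured 58.8 and 152 TPM. KLF4 and KLF5, factors of differentiating and of proliferating epithelium, measured 54.7 and 108 TPM and 393 and 696 TPM. KLF16 was the 1 below 0, at 44.6 and 26.4 TPM, a log2 fold of -0.73 that turned to 0.20 with the GC trend removed. That of KLF4 went from 0.96 to 1.22, past 2-fold.

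The EGF receptor family and its ligands had a median of 0.58 over 10 genes, 3 of them at least 2-fold higher. Those were HBEGF, ERRFI1 and EGFR, the receptor itself, at 34.98 and 79.8 TPM. ERBB3, a partner receptor without a working kinase, measured 72.1 and 131 TPM, and TGFA, another ligand, 23.97 and 39.3 TPM. ERBB2 was the 1 gene of the list below 0.

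Stress and survival genes were mixed. Genes of the unfolded protein response and the integrated stress response had a median of 0.34 over 26 genes, with 4 at least 2-fold higher and 1 lower. PPP1R15A, which encodes the phosphatase subunit that reverses eIF2-alpha phosphorylation, measured 185 and 920.3 TPM, and DDIT3, which encodes CHOP and overlaps MARS, 58.1 and 269 TPM. ERN1, which encodes the sensor IRE1, measured 6.77 and 22.4 TPM, while SDF2L1, an ER lumen chaperone partner, measured 209 and 97.1 TPM. SDF2L1 was the 1 lower gene, and its log2 fold went from -1.10 to -0.29 with the GC trend removed, which left 0 lower.

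Among 23 genes of the BCL2 family and apoptosis MCL1, a survival gene, stood at 381 and 1779.9 TPM. PMAIP1, which encodes the death-promoting NOXA, stood at 33.6 and 147 TPM. BAX, the pore-forming effector, was lower at 380.2 and 216 TPM. GDF15, a stress cytokine, measured 1012 and 3193 TPM, and FDXR, which encodes a mitochondrial reductase, 64.04 and 25.4 TPM. The log2 fold of FDXR was -0.70 in place of -1.30 with the GC trend removed. MIR3189 lies within GDF15, so their reads cannot be told apart.

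Cytosolic and mitochondrial chaperones had a median of 0.07 over 32 genes. Against 4.74% of all genes, 2 of the 32 were at least 2-fold lower. These were HSPB1, a small heat shock protein gene, at 274 and 110.0 TPM, and HSPA1B at 58.3 and 17.4 TPM. HSPB1 was within 2-fold with the GC trend removed, at -0.57 in place of -1.31. HSPA1B has a near-identical copy, HSPA1A, so how reads were split between them is uncertain.

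Genes of DNA replication were below the control as a group. The G1/S and DNA replication list had a median of -0.23 over 50 genes, with 33 below 0, 5 at least 2-fold lower and none at least 2-fold higher. MCM5 and MCM6, subunits of the replicative helicase, measured 62.5 and 20.3 TPM and 174 and 80.98 TPM, POLD1, the catalytic subunit of DNA polymerase delta, 109 and 36.7 TPM, and the thymidine kinase TK1 409 and 159 TPM. ORC2 and RFC1, of the origin recognition complex and the clamp loader, were higher at 40.99 and 74.05 TPM and 86.1 and 149.7 TPM. POLD1 is GC-rich, and with the trend removed its log2 fold was -0.77 in place of -1.55, whereas that of MCM6 was -1.37 in place of -1.09. The same removal put MCM5 at -1.22 and TK1 at -0.71.

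G2/M and mitosis genes had a median of -0.01 over 50 genes, with none at least 2-fold higher. Against 4.74% of all genes, 3 of the 50 were at least 2-fold lower. Those were KIF20A, a kinesin of late mitosis, at 88.02 and 23.7 TPM, the mitotic kinase PLK1 at 93.5 and 43.2 TPM and the anaphase activator CDC20 at 315 and 150.5 TPM. KIF20A overlaps BRD8 and CDC23, so its reads may hold some of theirs. The GC-poor motor genes KIF14 and CENPE were higher, at 44.02 and 72.8 TPM and 44.9 and 69.04 TPM. With the GC trend removed the list's median was -0.28, that of G1/S genes -0.34, and the folds of KIF14 and CENPE 0.25 and 0.07. PLK1 and CDC20 were then within 2-fold, at -0.74 and -0.67. The list of CDK inhibitors, cyclins and G1 kinases had a median of 0.19 over 22 genes, 13 of them above 0, and -0.03 after removal. Of its inhibitors, CDKN2B, which encodes p15, measured 19.2 and 92.7 TPM, while CDKN1C, which encodes p57, measured 15.4 and 4.24 TPM, a log2 fold of -1.64 that was -0.93 after removal.

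Mitochondrially encoded transcripts were higher with siRNA1. All 13 mRNAs were above 0, with a median of 0.71, and mitochondrially encoded genes together took 10.4% of all TPM with siRNA1, against 6.37% with the scrambled siRNA and 1.92% in the siRNA2 library. MT-CO1, the catalytic core of respiratory complex IV, stood at 8757 and 14580.4 TPM, and at 1797 TPM in the siRNA2 library. MT-ND4L, of complex I, measured 1641 and 3184 TPM, and MT-ATP6, of ATP synthase, 4680.1 and 6474 TPM. The ribosomal RNAs MT-RNR1 and MT-RNR2 measured 903 and 2022 TPM and 10619 and 20243 TPM. Of the 13 mRNAs, 1 was past 2-fold, MT-ATP8, at 9.24 and 27.6 TPM, which overlaps MT-ATP6 and stands far below it. With the GC trend of nuclear genes removed, the median of the 13 mRNAs was 0.48 in place of 0.71. The log2 fold of MT-CO1 was then 0.60 in place of 0.74.

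Nuclear genes of the same machine were on the other side of 0. The list of nuclear-encoded complex I subunits had a median of -0.25 over 31 genes, 25 of them below 0, with NDUFB7 at 329 and 153 TPM. That of complexes II to V had -0.13 over 37 genes, 28 below 0, with COX8A, a cytochrome c oxidase subunit, at 138 and 49.8 TPM and ATP5D, an ATP synthase subunit, at 258 and 105 TPM. Mitochondrial ribosomal proteins had -0.21 over 72 genes. Against 4.74% of all genes, 5 of the 72 were at least 2-fold lower, among them MRPL34 at 105 and 40.4 TPM and MRPS12 at 161 and 65.7 TPM. With the GC trend removed the medians were -0.27 for complex I, -0.34 for complexes II to V and -0.21 for mitochondrial ribosomal proteins. The genes at least 2-fold lower then numbered 0 in place of 1, 1 in place of 4, and 2 in place of 5. ATP5D and ATP5G3, at log2 folds of -1.29 and -1.13, were not matched to a GC content and have no value after removal. The median and count of complexes II to V after removal therefore cover fewer genes, and that drop is partly a loss of genes. The log2 folds of NDUFB7 and MRPS12 went from -1.10 and -1.28 to -0.33 and -0.86. Since TPM sums to a fixed total, more mitochondrial TPM lowers all other values. With mitochondrial genes left out and TPM rescaled, 11028 genes entered, against 10851 as deposited. Of these 11028 genes, 572 were at least 2-fold higher and 458 lower.

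Cytosolic ribosomal protein genes had a median of -0.35 over 79 genes, with 65 below 0 and none at least 2-fold higher. At least 2-fold lower were 4 of the 79, near the share of 4.74% over all genes. RPL13, RPL18 and RPL8, of the large subunit, measured 997 and 466 TPM, 1189.7 and 565 TPM and 2557 and 1229 TPM. RPL22L1 and RPS27 were higher, at 29.8 and 49.5 TPM and 2609 and 3611 TPM. RPL13, RPL18 and RPL8 were within 2-fold with the GC trend removed, at -0.78, -0.77 and -0.39. The list as a whole then had a median of -0.34, with 3 genes at least 2-fold lower. Ribosomal protein genes have many processed copies that can share their reads, so single values are uncertain.

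Abundant genes stood on both sides of the control, and the correlation of fold with mean TPM across genes was -0.04. The light chain of ferritin, FTL, which stores iron, measured 22494 and 13620.1 TPM, the largest TPM difference on the lower side. TMSB10, an actin-binding thymosin, measured 7018 and 3946 TPM, and the elongation factor EEF2 3356 and 2047 TPM. The actin and tubulin list had a median of -0.23 over 31 genes, 4 of them at least 2-fold lower. ARPC5, a subunit of the actin-branching Arp2/3 complex, measured 87.5 and 28.9 TPM, and unlike most low genes it is poor in GC, at 39.4%. With the trend removed its log2 fold was -1.997 in place of -1.57. The tubulin genes TUBA1B and TUBB4B measured 179 and 63.6 TPM and 1293 and 475 TPM, and removal put TUBB4B at -0.97 in place of -1.44. The actin and tubulin list then had 2 genes at least 2-fold lower.

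Transcription factors of gastric and intestinal lineage were split. Of 23 entered, 1 was at least 2-fold higher and 4 lower, around a median of 0.08. CDX2, the intestinal homeobox factor, measured 161 and 54.6 TPM, SOX2, a factor of foregut and stomach, 59.5 and 20.8 TPM, GATA5 48.4 and 15.1 TPM and FOXQ1, a forkhead factor, 806 and 373 TPM. SOX4 and SOX9, factors of progenitor cells, were higher at 27.6 and 97.5 TPM and 585 and 1074 TPM. With the trend removed the log2 folds of CDX2 and SOX2 were -1.22 and -1.41, and those of FOXQ1 and GATA5 -0.49 and -0.93.

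Gastric and intestinal differentiation products had a median of -0.16 over 17 genes, with 0 at least 2-fold higher and 3 lower. With the GC trend removed 1 was at least 2-fold higher and 2 were lower. The abundant LYZ, which encodes lysozyme, measured 3574 and 4401 TPM, and REG4, a secreted lectin, 786 and 828 TPM. PGC, which encodes pepsinogen C, and ALPI, which encodes intestinal alkaline phosphatase, were low and lower still with siRNA1, at 12.6 and 4.23 TPM and 8.23 and 2.42 TPM, and ALPI was within 2-fold, at -0.82, with the trend removed. The epithelial junction and keratin list had a median of -0.02 over 36 genes, and 1 was at least 2-fold lower, the desmosomal plakophilin PKP3 at 226 and 104 TPM, whose log2 fold of -1.11 was -0.24 with the trend removed.

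Of the forkhead factors 18 of 31 entered, with a median of -0.08, 2 at least 2-fold higher and 2 lower. FOXO3, a factor held in the cytoplasm by AKT, measured 45.9 and 100.4 TPM, and FOXN2 22.9 and 49.9 TPM. FOXP1, the nearest relative expressed, measured 33.4 and 45.4 TPM, a log2 fold of 0.43 that was 0.04 with the trend removed. FOXD2 measured 9.04 and 2.82 TPM and FOXA1, an endoderm pioneer factor, 69.1 and 52.4 TPM. Removal put FOXN2 and FOXD2 within 2-fold, at 0.52 and -0.63.

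Around YAP1, the Hippo list had a median of 0.21 over 26 genes, with YAP1 the 1 member at least 2-fold lower. WWTR1, which encodes the YAP1 paralog TAZ, measured 13.3 and 27.6 TPM, the kinase LATS1 19.8 and 40.2 TPM and the partner factor TEAD1 70.6 and 109 TPM. VGLL4, a competitor of YAP1 for TEAD factors, measured 43.4 and 26.7 TPM. MOB1A, a cofactor of the LATS kinases, measured 144 and 89.9 TPM, while its paralog MOB1B measured 27.3 and 51.2 TPM. After removal of the GC trend no Hippo gene was at least 2-fold higher and 2 were lower, and WWTR1 stood at 0.63 in place of 1.00.

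Target genes of YAP and TEAD had a median of 0.22 over 21 genes, with 1 at least 2-fold higher and 1 lower. Those were GADD45A, a growth arrest gene, at 66.9 and 170.2 TPM, and the GTPase exchange factor ARHGEF17 at 12.5 and 4.35 TPM. NUAK2, a kinase, measured 29.9 and 15.7 TPM and AJUBA, a scaffold of junctions, 142 and 116 TPM. Of the 21 targets 12 were above 0 and 9 below, in the library where YAP1 was low. Of all 10851 genes entered, 5635 were above 0 and 5216 below. After the same removal 2 targets were at least 2-fold higher and 0 lower, with ARHGEF17 at -0.69 in place of -1.34.

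Receptor and ligand lists of other pathways had low medians that came close to 0 with the GC trend removed. Notch receptors, ligands and targets had -0.37 over 17 genes and 0.06 after removal. HES6, a member of the HES family, measured 64.3 and 18.4 TPM, and HES4 measured 63.3 and 29.3 TPM, a log2 fold of -1.09 that was 0.20 after removal. Ephrins, Eph receptors and semaphorins had -0.37 over 28 genes and -0.04 after removal, though EPHA2, a receptor, was higher at 321 and 676 TPM. Wnt receptors and targets had -0.22 and 0.05, with the receptor FZD2 at 56.1 and 17.4 TPM and the target SP5 at 521 and 170.2 TPM. HES6, FZD2 and SP5 were within 2-fold after removal, at -0.78, -0.87 and -0.77. The median GC content of the genes entered in the Notch and ephrin lists was 59.8% and 59.9%.

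Integrins, laminins and focal adhesion genes had a median of -0.06 over 33 genes, with the collagen receptor subunit ITGA2 at 185 and 546 TPM and the actin crosslinker ACTN1 at 218 and 106 TPM. In the TGF-beta and BMP list the SMAD repressor SKIL measured 87.5 and 297 TPM and the activin antagonist FSTL3 99.9 and 30.2 TPM. Sterol synthesis genes had a median of 0.01 over 26 genes, 2 of them at least 2-fold higher, among them HMGCS1, which encodes a synthase at the head of the pathway, at 76.7 and 157 TPM. In the glycolysis and hypoxia list LDHA, lactate dehydrogenase A, measured 369.8 and 174 TPM and VEGFA 53.2 and 106 TPM. Of the autophagy list, with a median of 0.34 over 32 genes, MAP1LC3B, which encodes the autophagosome protein LC3B and overlaps FBXO31, measured 67.5 and 233 TPM. The autophagy median was 0.14 with the GC trend removed. The RNA interference machinery had a median of 0.12 over 16 genes, with AGO2, which carries guide RNAs, at 25.1 and 44.4 TPM. Interferon-stimulated and RNA sensing genes had 0.18 over 24 genes, with IFIT5 at 18.1 and 39.8 TPM and the secreted ubiquitin-like ISG15 at 598 and 339 TPM. Removal put FSTL3, HMGCS1 and IFIT5 within 2-fold, at -0.95, 0.62 and 0.60, and VEGFA past it, at 1.23.

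**Figure D3:**
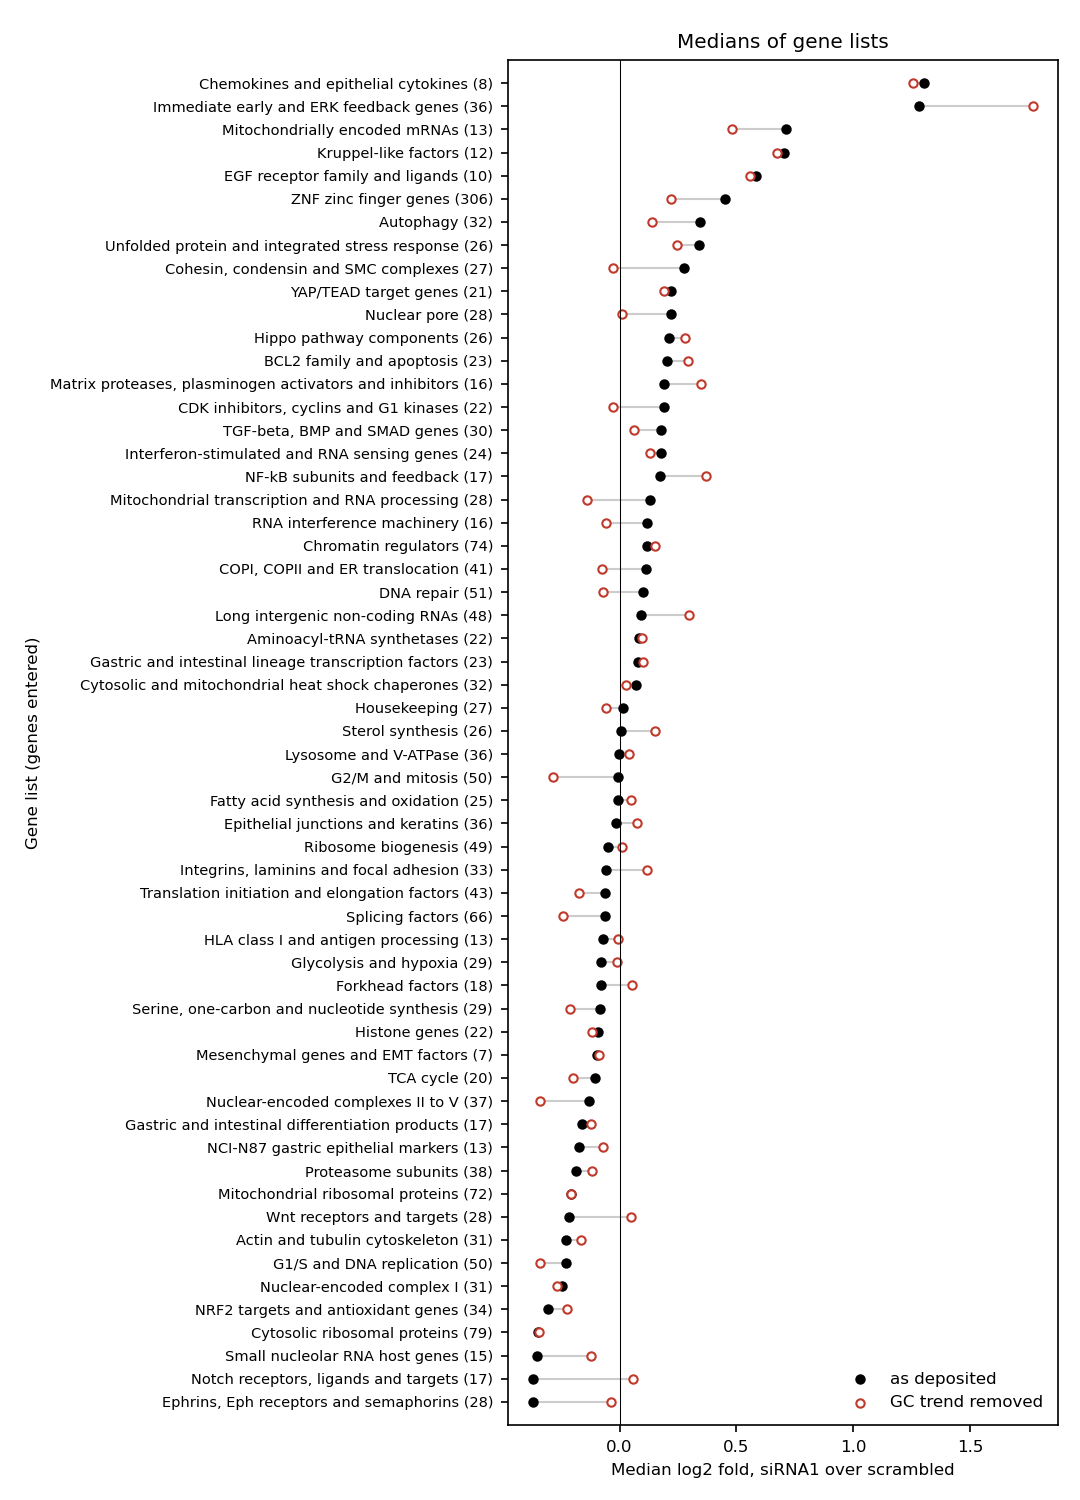
Median log2 fold of lists with at least 5 genes entered (x axis), ordered by the value as deposited, with the number of genes entered in brackets. Filled points are as deposited and open points have the GC trend removed. Chemokines (0.42 with no filter on low values) and immediate early genes (0.96 at the lowest over all settings) stand at 1.30 and 1.28. The Notch list moves from -0.37 to 0.06.

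Base composition ran with the fold across all genes. The Spearman correlation of the log2 fold with the GC content of the longest transcript was -0.67 over 10029 genes, and the Pearson correlation -0.61, as a description across genes of the same 2 libraries, which are not independent replicates. In the decile of genes poorest in GC (29.8% to 38.4%) the median was 0.50, with 92.5% of genes above 0, 109 at least 2-fold higher and 4 lower. In the decile richest in GC (61.4% to 83.9%) the median was -0.70, with 6.88% above 0, 8 at least 2-fold higher and 237 lower (23.6%). The 237 genes of that decile stood among 514 genes in all that were at least 2-fold lower. The correlation was 0.27 with exon length and -0.04 with mean TPM, while GC content and exon length had -0.26. In the siRNA2 library, set against the same control over 10619 genes, the correlation with GC content was -0.11. Whether composition, RNA quality or the library preparation moved these values was not tested.

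**Figure D4:**
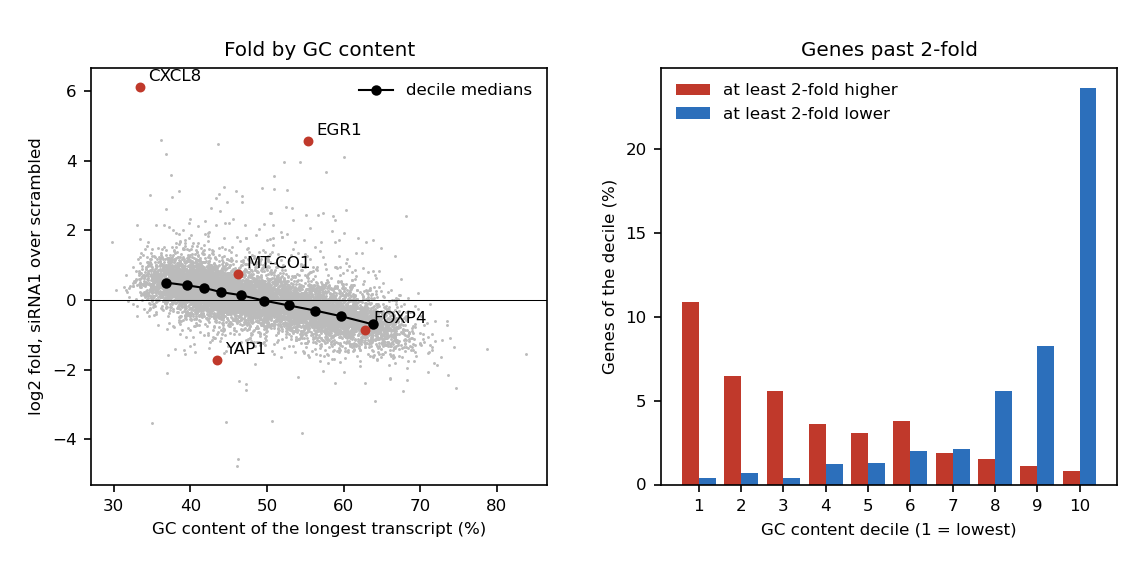
Left, log2 fold against the GC content of the longest transcript (%), 1 grey point a gene, with medians of the GC deciles in black and named genes in red. Right, share of genes (%) in each GC decile at least 2-fold higher (red) or lower (blue). The black line goes from 0.50 to -0.70, and YAP1 lies far below it while FOXP4 lies near it.

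The same gradient ran along chromosomes. Median folds of the 23 chromosomes with nuclear genes ranged from 0.34 on chromosome 13, where genes had a median GC content of 41.9%, to -0.40 on chromosome 19, at 58.8%, and the Pearson correlation of both medians was -0.99. Chromosomes 16 and 22 had medians of -0.30 each. Within chromosome 19 the genes split by composition: 138 ZNF zinc finger genes, mostly repressors of mobile DNA, had a median of 0.52 at 42.5% GC, and the 600 other genes -0.51 at 59.9%. With the GC trend removed these became 0.23 and -0.02.

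Over all chromosomes the 306 ZNF genes on the list had a median of 0.45, with 33 at least 2-fold higher and 13 lower, and 0.22 after removal, with 5 higher and 1 lower. ZNF77 had the highest fold among them, at 35.8 and 163 TPM, and 62.3 TPM in the siRNA2 library. ZNF697 and ZNF678 measured 20.2 and 68.8 TPM and 10.5 and 30.5 TPM, and at the other end ZNF771 and ZNF205 measured 8.52 and 2.38 TPM and 19.97 and 6.78 TPM. Removal put ZNF678 and ZNF205 within 2-fold, at 0.88 and -0.60.

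**Figure D5:**
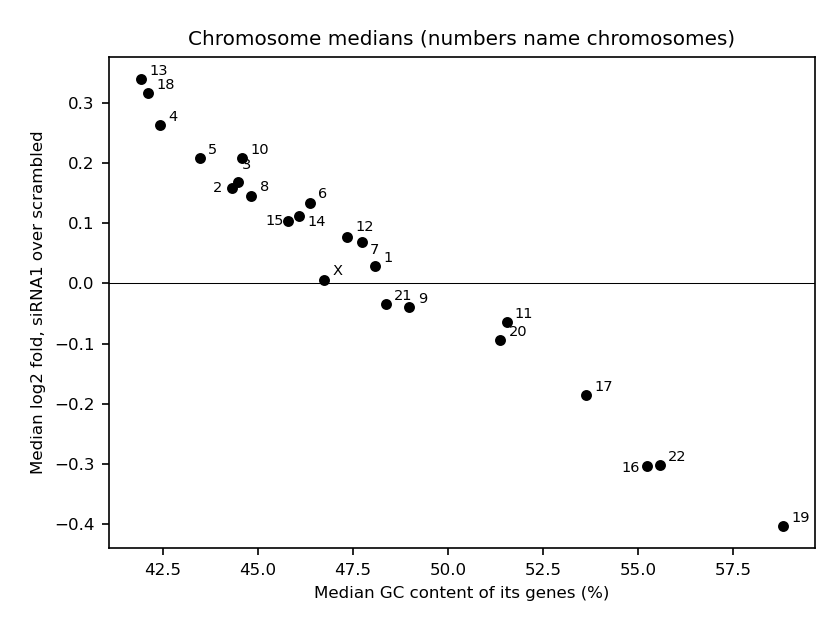
Median log2 fold of the genes entered on each of 23 chromosomes (y axis) against their median GC content (%, x axis), 1 labelled point a chromosome. Chromosome 13 lies at 0.34 and chromosome 19 at -0.40.

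The lowest protein-coding genes were mostly rich in GC. ENDOG, which encodes a mitochondrial nuclease, measured 30.5 and 4.12 TPM at 67.7% GC. The growth factor gene FGF18 measured 10.6 and 1.22 TPM, the dioxygenase-like HPDL 75.6 and 13.7 TPM, and CTU1, which encodes a tRNA-modifying enzyme, 47.3 and 8.73 TPM. MAZ, a zinc finger factor of GC-rich promoters, measured 59.4 and 11.8 TPM, and TMEM238, a small membrane protein gene with a GC content of 73.7%, 322 and 71.1 TPM. Removal of the trend left the log2 folds of ENDOG, FGF18, HPDL and MAZ at -1.69, -1.95, -1.73 and -1.40, and that of TMEM238 at -0.89 in place of -2.16. AP002495.1 and AC005702.1 had 26.1 and 10.4 TPM with the scrambled siRNA and were listed at 0 with siRNA1.

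Very short genes filled many of the extreme ranks. Of 80 genes with at most 200 bases of exon, 26 were at least 2-fold higher and 21 lower, and they made up 15 of the 66 genes at least 4-fold higher and 9 of the 26 lower. RNU6-1016P, RNU7-75P, MIR4766 and MIR93, of small nuclear RNA pseudogenes and microRNAs, were listed at 0 with the scrambled siRNA and had 23.4, 21.2, 17.3 and 16.5 TPM with siRNA1. These rested on 9.91 reads for RNU6-1016P and 5.94 for each of the others. They lie within SENP6, NUP155, SLC25A17 and MCM7, whose reads they can share, and poly(A) libraries do not measure mature microRNAs. No fold is given against a library at 0.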

How the data were processed

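Poly(A) RNA of NCI-N87 cells was made into NEBNext libraries, per the labels' protocols. The authors deposited 1 table of TPM with 1 column per library, on build GRCh38 per the submitters' processing notes. The quantifier, its version and the annotation are not given in the sources used here. The table held 31907 rows, 26 of them with names turned into dates. All else was computed here with Python 3.11.15, pandas 2.3.3 and statsmodels 0.14.6. Genes entered where the mean of the siRNA1 and scrambled columns was 5 TPM or more, and log2 folds used a pseudocount of 1 TPM. No test was made, since each side is 1 library.

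Gene types, lengths, positions and GC content came from GENCODE 29 by symbol, which matched 10029 of the genes entered (92.4%), and promoters from RefSeq on GRCh38.p14, with windows for 7788 genes entered. Of the genes in the lists, 23 were found through RefSeq synonyms. The GC trend was a lowess curve of the fold on GC content with a span of 0.4, fitted on nuclear genes of at least 10 TPM. Depth was read from low TPM values times exon length, of which 93.1% in either library came within 0.1 of whole reads, and estimated reads gave exact (Clopper-Pearson) counting intervals. The depth estimate and the removal of the GC trend were tested on simulated data, and the counting intervals were not. The simulation used the same exon lengths and a straight GC trend. It therefore cannot show errors that come from the unknown quantifier or annotation.

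The lists, the members and the naming rule were chosen with earlier results of these data known. The rule named FOXP4, YAP1, EGR1 and MT-CO1, the 20 highest and 20 lowest folds, up to 3 members at each end of every list, and the 10 largest TPM differences each way. A few further genes were named after their values were seen, and a few genes and 1 list are not reported here. Alternatives changed the pseudocount, the filter, the scaling, the GC trend and the gene set.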

Additional observations from a re-analysis of the deposited data

How the results depend on the processing

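With 1 library a side no replicate could be left out, and no paired analysis was possible because the result comes from no test and each group has 1 library. The median over all genes stayed between -0.000195 and 0.09 in every setting. As reported, 436 genes were at least 2-fold higher and 514 lower, and 66 and 26 at 4-fold. A pseudocount of 5 TPM gave 270 and 305, and 37 and 5. A minimum mean of 1 TPM gave 822 and 914, and 161 and 97. No filter gave 1095 and 1182, and again 161 and 97. A minimum of 10 TPM gave 43 and 15 at 4-fold, and protein-coding genes alone 37 and 12. Leaving out genes of up to 200 bases of exon, a setting added after the data were seen, gave 17 at 4-fold lower. Genes of unknown exon length stayed in. Removing the GC trend gave 254 and 151 at 2-fold, and 13 at 4-fold lower. Among named genes past 2-fold that of HES4 changed sign, at 0.20 with the GC trend removed, and 65 of 397 named genes then went from past 2-fold to within it. Of 59 lists, 37 kept the sign of their median in every setting. The causes of these shifts were not tested, beyond the number of genes each setting admits. Depth limits genes with few reads, such as EGR2, ARL14 and short genes.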
